A study of Mus musculus with 36 samples.

Results

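The liver transcriptome of mice lacking thyroid hormone receptor beta (THRB) was compared with that of control mice at a single time of day, ZT14. ZT counts hours from lights on, so that with 12 hours of light and 12 hours of dark ZT14 falls 2 hours into the dark, active phase. The comparison rests on 6 of the 36 RNA-seq libraries of the series, 3 from KO and 3 from WT livers, each from another mouse, and was made for 14193 protein-coding genes with at least 100 counts summed over the 36 libraries. All mice were males aged 2 to 3 months on chow with 5% fat. KO mice were homozygous for the Thrb-tm1Df allele (THRB-/-), which affects both THRB isoforms in every tissue, and the controls labelled WT were heterozygous (THRB+/-), so that all animals carried at least 1 copy of the altered allele. Livers were also taken at ZT2, ZT6, ZT10, ZT18 and ZT22, with 3 mice per genotype and time, and these 30 libraries served here to estimate the spread between mice and to see whether a difference at ZT14 stood apart from the other times.

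Thyroid hormone enters hepatocytes through membrane transporters, is activated or cleared by deiodinases, and acts on nuclear receptors that sit on DNA together with the retinoid X receptor. In liver, THRB is the main receptor and THRA the minor one. Hormone-bound receptor raises transcription of genes of lipid synthesis, fatty acid oxidation, cholesterol uptake and bile acid synthesis, and the same receptor without hormone can repress them. Early night is the time when a mouse on free feeding eats most, and hepatic programs of feeding and protein secretion are then active.

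Total counts at ZT14 ranged from 31162685 to 42530551 per library and TMM factors, which correct for library composition, from 0.918 to 1.06. Levels are given in CPM, counts scaled to library size after that correction, and do not account for gene length. Mitochondrial transcripts made up 5.66% to 7.21% of the counts. KO replicate c stood apart from the other livers of this time: 23 genes were at least 2-fold above and 50 genes at least 2-fold below all of the other 5 libraries after adding 1 CPM, whereas no other library had more than 7 such genes in a direction. For many of the lists and genes whose values rest on this liver, results are given with and without it.

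The knockout does not show in the level of its own gene. Thrb (chromosome 14, 17660261 to 18038090, plus strand, GRCm38) was at 27.7, 32.2 and 29.9 CPM in WT replicates a, b and c and at 33.7, 31.3 and 26.4 CPM in KO replicates a, b and c. The groups overlapped, with a log2 fold change of 0.02 ± 0.13 (SE). The allele impairs the DNA-binding part of the receptor, and counts per gene do not separate altered from intact transcripts, so this level neither checks nor contradicts the genotype. Thra, the other receptor gene, lay at 10.3 to 12.5 CPM in WT and 9.21 to 12.1 CPM in KO, with a log2 fold change of -0.16 ± 0.15 (SE).

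At ZT14, 1 of 14193 genes passed the threshold of an adjusted p of 0.05 (0.00705%) by the quasi-likelihood test of edgeR, adjusted after Benjamini and Hochberg. This gene, Gm3839, fell in KO. No gene rose past the threshold. At an unadjusted p under 0.05, 835 genes (5.88%) were found, of which 537 (3.78%) were higher and 298 (2.1%) lower in KO. The 3 KO values lay entirely above the 3 WT values for 802 genes (5.65%) and entirely below for 732 genes (5.16%). All further differences between the genotypes in this account are therefore levels and fold changes that did not pass the adjusted test of that fit, with adjusted p-values of at least 0.623 in edgeR for every gene other than Gm3839.

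Gm3839 (ENSMUSG00000097148) lies on chromosome 14 from 11280735 to 11356726 on the minus strand, 6.3 Mb from Thrb. It stood at 7.38, 8.51 and 6.10 CPM in WT replicates a, b and c and at 0.889, 0.539 and 0.835 CPM in KO. The lowest WT liver was far above the highest KO liver. Its log2 fold change was -3.28 ± 0.51 (SE) with an adjusted p of 0.00804 in edgeR, and the direction was the same at the other 5 times. Over all libraries, the 18 WT livers spanned 4.34 to 11.7 CPM, and 17 of the 18 KO livers stayed at or below 1.23 CPM. The remaining KO liver, replicate c of ZT10, was at 8.97 CPM, inside the WT range. The table describes Gm3839 as a predicted pseudogene although it is classed as protein coding. Its transcript in GENCODE is 99.1% identical to that of Gapdh, a glycolytic enzyme gene, over 1232 aligned bases. It is also 99.2% identical to that of Gm10358 over 1230 aligned bases. The count of Gm3839 is thus uncertain, since reads of these genes could be split among them. Gapdh itself was at 24.2, 22.6 and 173.0 CPM in WT and 27.4, 19.8 and 61.6 CPM in KO, so that its groups overlapped. The call of Gm3839 was lost without WT replicate b and without any 1 of the 3 KO replicates, where its adjusted p in edgeR lay between 0.0534 and 0.128.

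**Figure D1:**
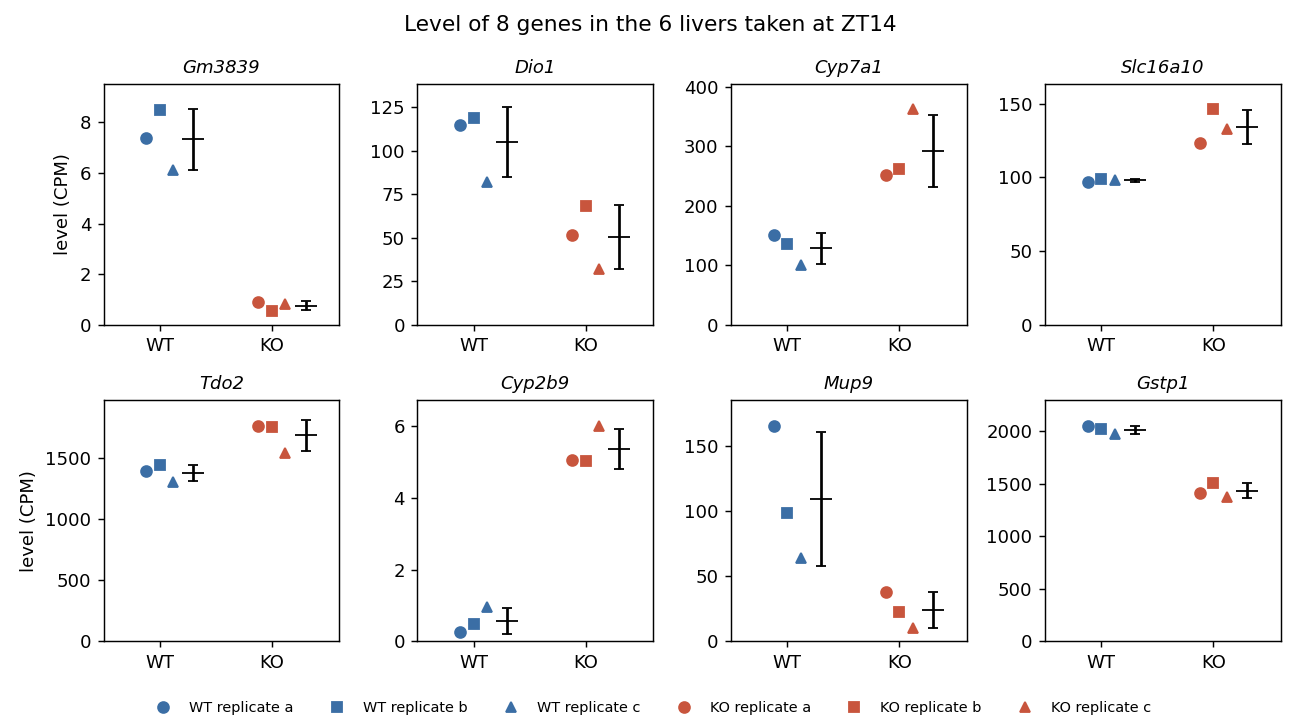
Level in CPM (y axes, from 0) of 8 genes in the 3 WT (blue) and 3 KO (red) livers of ZT14; circles, squares and triangles are replicates a, b and c, and the bar beside them is the mean ± SD of the 3 livers. For all 8 genes the groups do not overlap, and only for Gm3839 did the difference pass the adjusted test.

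The strain name of the altered allele gives it an origin outside the C57Bl/6NCrl background, and genes near Thrb on chromosome 14 were therefore looked at as a group. Of 148 tested genes within 20 Mb, 10 (6.76%) were higher and 7 (4.73%) lower in KO at an unadjusted p under 0.05, and the groups did not overlap for 9 genes above (6.08%) and 10 below (6.76%). Over all genes these shares were 3.78%, 2.1%, 5.65% and 5.16%, and the median log2 fold change was 0.02 beside 0.01 for all genes tested. Rpl15, a protein of the large ribosomal subunit whose gene ends 0.23 Mb from Thrb, was at 146, 139 and 149 CPM in WT and 124, 119 and 116 CPM in KO. Every KO value was below every WT value, with a log2 fold change of -0.27 ± 0.07 (SE) and the same direction at the other 5 times. Its neighbour Nkiras1, an inhibitor of NF-kappaB signalling, was at 37.7, 28.7 and 33.1 CPM in WT and 46.4, 42.4 and 42.7 CPM in KO, with all KO livers above all WT livers and a log2 fold change of 0.40 ± 0.11 (SE). The 2 genes overlap on opposite strands, and the libraries did not keep strand, so reads of the shared stretch cannot be told apart. Ankrd28, a subunit of a protein phosphatase 6 complex 13.7 Mb from Thrb, was at 30.0, 26.9 and 26.1 CPM in WT and 34.6, 35.7 and 36.2 CPM in KO, with a log2 fold change of 0.36 ± 0.09 (SE). Unlike the first pair, it had the same direction at only 2 of the other 5 times.

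Among 18 genes of thyroid hormone receptors, deiodinase, transporters and carriers, 2 were higher and 1 lower in KO at an unadjusted p under 0.05, beside 3.78% and 2.1% of all genes. Dio1, the deiodinase that converts and clears thyroid hormone in liver and a standard readout of hepatic thyroid hormone action, was at 115, 119 and 82.1 CPM in WT and at 51.3, 68.2 and 31.8 CPM in KO. All 3 KO livers were below all 3 WT livers, about 1 log2 unit apart (-1.06 ± 0.35, SE), and the fold changes at the other times ran from -1.19 to -0.47. The adjusted p for Dio1 at ZT14 was 0.793 in edgeR. With a term for the replicate letter at each time added to the model, the adjusted p was 0.00774 in edgeR. Dio1 did not pass with that term in the 6 libraries of ZT14 alone, and the sources do not say what a letter marks. Without KO replicate c and without that term, its log2 fold change was -0.81, with an unadjusted p of 0.0421 in edgeR. Slc16a10, an aromatic amino acid transporter that also carries thyroid hormone, was at 96.5, 98.8 and 98.5 CPM in WT and 124, 146 and 133 CPM in KO. The WT livers were nearly equal to each other and all KO livers were higher, with a log2 fold change of 0.45 ± 0.16 (SE). At the other times the fold changes of Slc16a10 ran from -0.13 to 0.27 and so had no common direction. Slco1a4, an organic anion and thyroid hormone transporter, was at 91.5, 87.9 and 73.8 CPM in WT and 99.6, 132 and 180 CPM in KO, again without overlap and highest in KO replicate c. Its log2 fold change was 0.70 ± 0.31 (SE) in all livers and 0.46 without that liver, when its unadjusted p in edgeR was 0.184.

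Genes known as classical thyroid hormone targets of liver had values on both sides of 0. Of 29 tested, 4 were higher (Fgf21, Cyp7a1, Cpt1a and Gpd2) and 2 lower (Dio1 and Nrp1) at an unadjusted p under 0.05, beside 3.78% and 2.1% of all genes, and the median log2 fold change was 0.03. The log2 fold change of Fgf21 went from 2.50 to 1.28 without KO replicate c. Thrsp, a regulator of lipid synthesis named for its response to thyroid hormone, was at 1850, 1192 and 1962 CPM in WT and 1942, 1559 and 404 CPM in KO. KO replicates a and b lay within the WT range and KO replicate c far below it, so that the log2 fold change was -0.36 ± 0.56 (SE) with that liver and 0.07 without it. Me1, malic enzyme, which supplies NADPH for fatty acid synthesis, was at 306, 359 and 320 CPM in WT and 485, 503 and 272 CPM in KO, and here too replicate c alone of the KO livers lay below WT. Klf9, a transcription factor induced by thyroid hormone, was at 35.3, 30.7 and 26.6 CPM in WT and 34.7, 44.2 and 43.5 CPM in KO, with overlapping groups. None of the 20 genes of de novo lipogenesis and desaturation reached an unadjusted p under 0.05, and none separated the groups. Without KO replicate c, fewer of the classical targets remained at an unadjusted p under 0.05, with 1 higher and 1 lower, beside 3.01% and 1.89% of all genes.

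**Figure D2:**
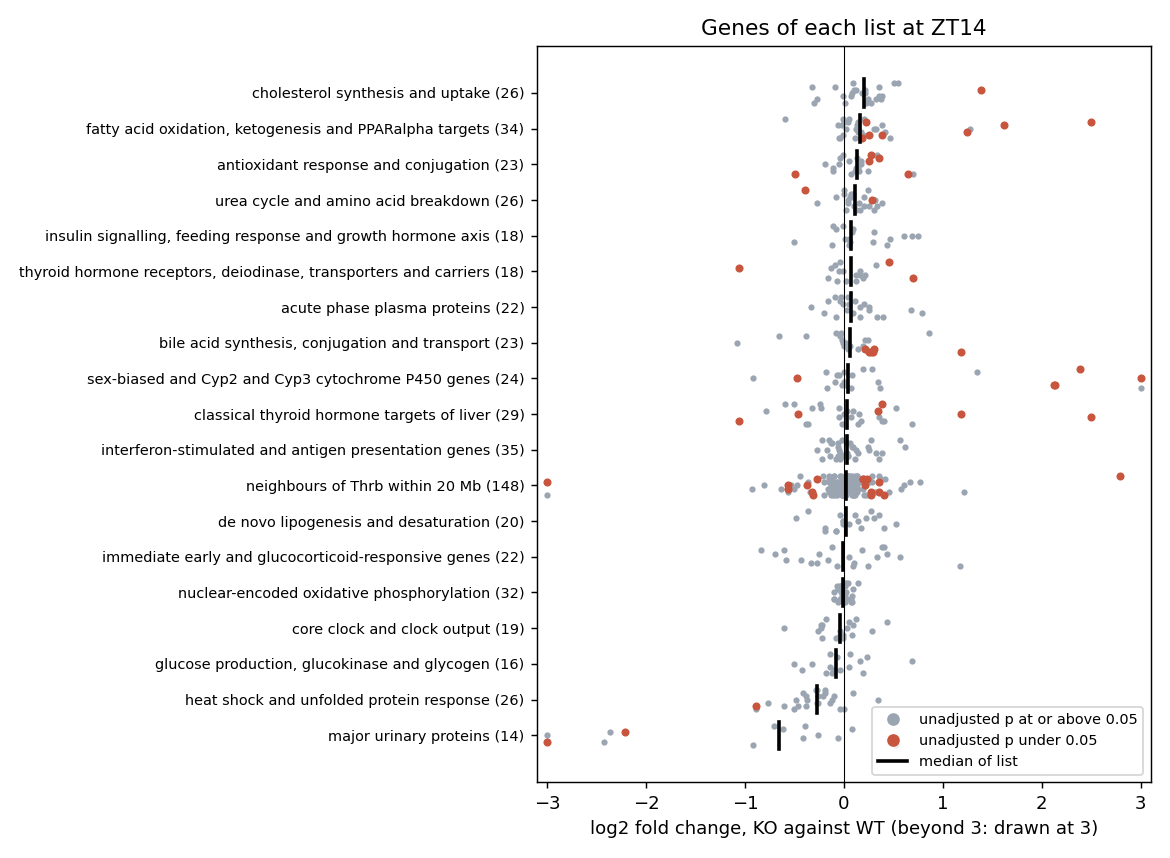
Log2 fold change between KO and WT at ZT14 (x axis) of every tested gene of each list (rows, with the number tested); red points have an unadjusted p under 0.05, grey points do not, values beyond 3 are drawn at 3, and the black bar is the median of the list. Medians run from -0.66 for major urinary proteins, -0.29 without KO replicate c, to 0.21 for cholesterol synthesis and uptake, 0.27 without that liver.

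Of 23 tested bile acid genes, 6 were higher and 0 lower in KO at an unadjusted p under 0.05, beside 3.78% and 2.1% of all genes. Cyp7a1, the rate-limiting enzyme of bile acid synthesis, was at 150, 136 and 100 CPM in WT and at 252, 262 and 362 CPM in KO. The lowest KO liver exceeded the highest WT liver, and the mean was 129 ± 26.0 CPM (SD, n = 3) in WT and 292 ± 60.6 CPM (SD, n = 3) in KO. The log2 fold change was 1.18 ± 0.45 (SE) in all livers and 0.998 without KO replicate c. Abcb11, the bile salt export pump, was at 332, 315 and 284 CPM in WT and 455, 334 and 350 CPM in KO, and Abcb4, the phospholipid floppase of bile, at 185, 215 and 174 CPM in WT and 224, 258 and 228 CPM in KO. Both pumps separated the groups, with log2 fold changes of 0.29 ± 0.12 and 0.31 ± 0.15 (SE). Hsd17b4, a peroxisomal enzyme of side chain shortening, had a log2 fold change of 0.21 ± 0.08 (SE), Acox2, the branched chain oxidase of the same route, 0.28 ± 0.14 (SE), and Fgfr4, the receptor through which FGF15 represses Cyp7a1, 0.25 ± 0.10 (SE). The groups overlapped for each of these genes, and Acox2 is one of the neighbours of Thrb, at 9.4 Mb. Nr0b2, encoding the repressor SHP, stood on the other side, at 33.4, 32.1 and 46.4 CPM in WT and 29.8, 17.8 and 23.4 CPM in KO. All its KO values were below WT, with a log2 fold change of -0.65 ± 0.43 (SE). Cyp8b1, which directs synthesis towards cholic acid, was at 414 and 330 CPM in KO replicates a and b, above all WT livers, and at 66.5 CPM in KO replicate c, below them all. Without KO replicate c, 6 members were higher and 0 lower at an unadjusted p under 0.05, beside 3.01% and 1.89% of all genes. Cyp7a1 and Fgfr4 were then not among them, with unadjusted p-values of 0.0531 and 0.247 in edgeR.

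Of 26 genes of cholesterol synthesis and uptake, 21 had a log2 fold change above 0, against 52.2% of all genes, and the median was 0.21. Only Vldlr, a lipoprotein receptor, reached an unadjusted p under 0.05, which is 3.85% of the list beside 3.78% of all genes higher in KO. Vldlr was at 1.46, 2.04 and 1.72 CPM in WT and 3.09, 3.74 and 6.77 CPM in KO. Its log2 fold change went from 1.39 to 0.97 without KO replicate c, with an unadjusted p of 0.135 in edgeR. For Vldlr and 4 enzymes of the pathway (Mvk, Fdft1, Msmo1 and Hsd17b7) the KO livers lay above the WT livers without overlap. These are 19.2% of the list, beside 5.65% of all genes. No member lay entirely below WT, beside 5.16% of all genes. Msmo1, a sterol demethylation enzyme, was at 97.2, 90.8 and 70.4 CPM in WT and 142, 114 and 111 CPM in KO, a log2 fold change of 0.51 ± 0.26 (SE). Hsd17b7, which acts in the same route, was at 53.1, 53.9 and 46.4 CPM in WT and 76.1, 57.2 and 65.6 CPM in KO. The highest of the 3 KO livers for both was replicate a, not replicate c. Without KO replicate c, 12 of the 26 members lay entirely above WT, beside 12% of all genes.

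Genes of fatty acid oxidation, ketogenesis and PPARalpha targets also had more values above 0 than below. Of 34 tested, 27 had a log2 fold change above 0, against 52.2% of all genes, with a median of 0.16. At an unadjusted p under 0.05, 7 were higher and 0 lower, beside 3.78% and 2.1% of all genes. Cpt1a, the carnitine transferase that admits fatty acids to mitochondria, was at 259, 305 and 258 CPM in WT and 319, 353 and 401 CPM in KO, without overlap and with a log2 fold change of 0.39 ± 0.16 (SE). Hadhb, the beta subunit of the mitochondrial trifunctional protein, was at 136, 156 and 145 CPM in WT and 156, 175 and 190 CPM in KO, a log2 fold change of 0.26 ± 0.09 (SE). Its partner subunit Hadha was at 353, 406 and 347 CPM in WT and 394, 423 and 436 CPM in KO, a log2 fold change of 0.18 ± 0.08 (SE). For all 3 genes KO replicate c was the highest liver, and Hadha overlapped between the groups. Without that liver the log2 fold change of Hadhb was 0.19, with an unadjusted p of 0.077 in edgeR. Abcd2, a peroxisomal fatty acid transporter, varied more, at 12.6, 24.3 and 12.0 CPM in WT and 17.6, 41.3 and 56.6 CPM in KO, and its groups overlapped. Its log2 fold change at ZT14 was 1.24 ± 0.47 (SE) and lay between 0.89 and 1.28 at the other times. Without KO replicate c, 5 genes of the list were higher at an unadjusted p under 0.05, beside 3.01% of all genes.

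Most heat shock and unfolded protein response genes had lower values in KO, without passing the test. Many of these genes make proteins that fold, modify or refold other proteins. Heat shock proteins act in the cytosol, and chaperones of the unfolded protein response in the endoplasmic reticulum, where a secreting hepatocyte makes plasma proteins. The list also holds the transcription factors Xbp1, Atf4 and Ddit3 and the RNA-binding proteins Cirbp and Rbm3. Of 26 tested, 3 had a log2 fold change above 0, against 52.2% of all genes, and the median was -0.27. All KO livers lay below all WT livers for 11 of the 26, beside 5.16% of all genes, and above for 1. A single gene, Sdf2l1, was lower at an unadjusted p under 0.05 and 0 were higher, and no member passed the adjusted test. Promoters of some members with the ER stress response element are shown here, because this motif is a known element of unfolded protein response genes. In RefSeq promoters (GRCm38.p6), the 250 bases before the start of transcription held the motif, CCAAT and CCACG with 9 bases between them, on either strand, in 37 of 32851 promoters (0.113%) and in 6 of the 20 list genes with an entry (Calr, Creld2, Dnajc3, Hsp90b1, Hspa5 and Pdia6). The capitals mark the motif, 5′ to 3′ on the strand of the gene, for Hspa5 (chr2:34771840-34772089, plus), Creld2 (chr15:88819396-88819645, plus), Calr (chr8:84846932-84847181, minus) and Pdia6 (chr12:17266339-17266588, plus).
Hspa5: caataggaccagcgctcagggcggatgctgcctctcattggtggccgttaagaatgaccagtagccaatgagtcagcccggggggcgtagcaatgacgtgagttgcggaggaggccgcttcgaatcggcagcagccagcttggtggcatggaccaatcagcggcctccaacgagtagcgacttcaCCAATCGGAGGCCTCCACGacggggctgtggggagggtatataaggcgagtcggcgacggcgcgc
Creld2: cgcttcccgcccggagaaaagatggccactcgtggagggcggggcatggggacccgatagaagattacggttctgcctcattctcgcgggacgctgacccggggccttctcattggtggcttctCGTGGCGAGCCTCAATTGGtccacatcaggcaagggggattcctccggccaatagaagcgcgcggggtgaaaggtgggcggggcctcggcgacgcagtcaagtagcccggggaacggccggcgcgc
Calr: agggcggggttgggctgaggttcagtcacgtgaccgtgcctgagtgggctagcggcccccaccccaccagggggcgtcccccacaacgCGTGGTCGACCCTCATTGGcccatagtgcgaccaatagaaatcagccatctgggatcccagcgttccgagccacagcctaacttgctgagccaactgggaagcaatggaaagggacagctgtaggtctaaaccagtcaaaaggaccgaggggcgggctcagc
Pdia6: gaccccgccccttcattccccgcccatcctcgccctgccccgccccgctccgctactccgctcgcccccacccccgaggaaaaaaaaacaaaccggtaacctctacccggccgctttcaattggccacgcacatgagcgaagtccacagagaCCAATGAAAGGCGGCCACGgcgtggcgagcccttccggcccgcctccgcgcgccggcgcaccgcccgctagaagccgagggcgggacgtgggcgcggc
A gene counted if any of its promoters matched, so the share of all promoters is not in the same unit. A match describes the letters only, and genes without it in this window, Sdf2l1 among them, lay lower as well.

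Sdf2l1, a cofactor of the endoplasmic reticulum chaperone BiP, was at 53.8, 83.4 and 74.2 CPM in WT and at 32.9, 47.4 and 34.2 CPM in KO. The highest KO liver was below the lowest WT liver, with a log2 fold change of -0.88 ± 0.36 (SE) and an adjusted p of 0.809 in edgeR. Calr, the calcium-binding chaperone calreticulin, was at 855, 871 and 908 CPM in WT and 820, 720 and 648 CPM in KO, and Pdia6, a disulfide isomerase, at 279, 303 and 295 CPM in WT and 251, 250 and 232 CPM in KO. Both separated the groups by about the same amount (-0.27 ± 0.15 and -0.26 ± 0.17, SE). Herpud1, which takes part in degradation of misfolded proteins, was at 566, 724 and 720 CPM in WT and 494, 549 and 410 CPM in KO, a log2 fold change of -0.47 ± 0.29 (SE). Hspa5, which encodes BiP, was at 1091, 1794 and 1380 CPM in WT and 915, 1324 and 1038 CPM in KO. Its groups overlapped, because WT replicate a lay below KO replicate b (log2 fold change -0.38 ± 0.30, SE). Creld2, a secreted target of the response, overlapped in the same way at 94.4, 153 and 132 CPM in WT and 64.3, 105 and 53.5 CPM in KO. The cold-inducible RNA-binding protein gene Cirbp was the 1 member with all KO livers above, at 19.9, 19.6 and 21.0 CPM in WT and 24.3, 25.2 and 27.3 CPM in KO. Rbm3, also cold-inducible, had all KO livers below WT. The median of the list was 0.01 at ZT2, 0.06 at ZT6, -0.16 at ZT10, -0.05 at ZT18 and -0.06 at ZT22, each from other mice. At ZT14, 11 of the 26 members lay entirely below WT also without KO replicate c, beside 10.4% of all genes. No member then had an unadjusted p under 0.05.

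**Figure D3:**
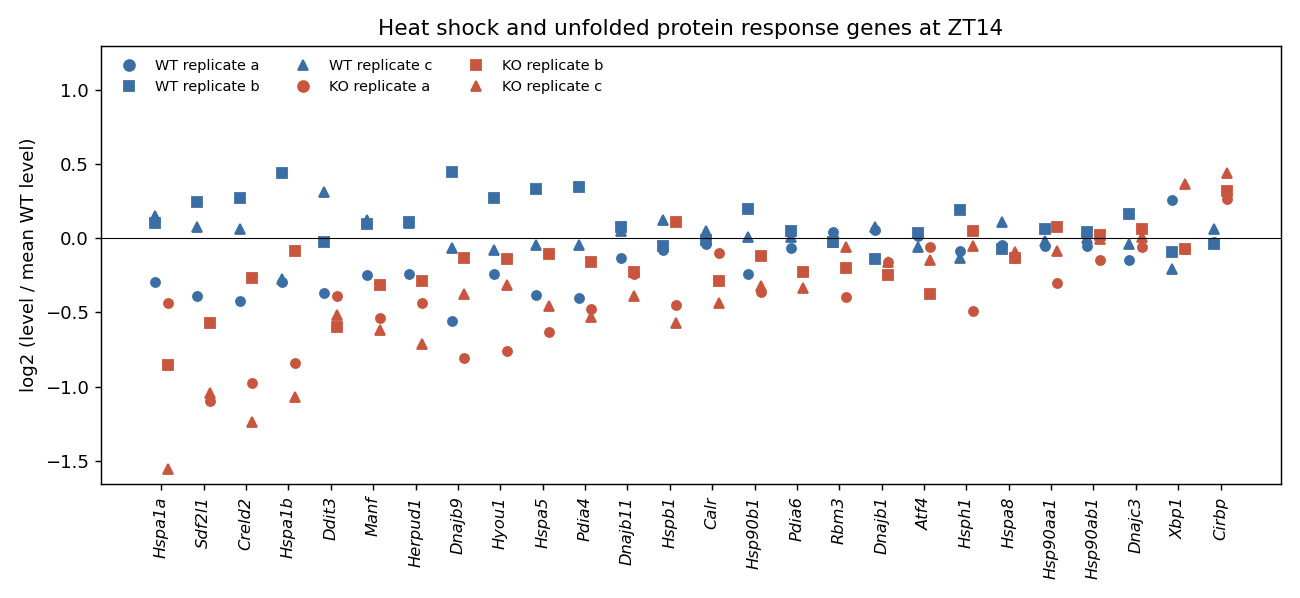
Level of each of the 26 heat shock and unfolded protein response genes in the 6 livers of ZT14, as log2 of the level over the mean of the 3 WT livers (y axis), ordered by fold change; blue is WT, red is KO, and circles, squares and triangles are replicates a, b and c. KO points lie below WT points without overlap for 11 genes, and WT replicate b is the highest liver for many of the endoplasmic reticulum genes.

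Genes expressed differently in male and female liver, together with Cyp2 and Cyp3 cytochromes, held 4 higher members and 1 lower of 24 at an unadjusted p under 0.05. The shares over all genes were 3.78% and 2.1%, and without KO replicate c 2 members were higher and 0 lower. The groups did not overlap for 6 members above WT and 1 below, beside 5.65% and 5.16% of all genes. Cyp2b9, a female-predominant cytochrome of drug metabolism, was at 0.258, 0.491 and 0.952 CPM in WT and 5.05, 5.02 and 6.002 CPM in KO. The KO livers were close to each other and all well above WT, with a log2 fold change of 3.25 ± 1.67 (SE), and over the 36 libraries this gene reached 98.8 CPM in KO and 9.31 CPM in WT. Cyp2b10, the related cytochrome induced through the receptor CAR, was at 7.18, 1.69 and 3.75 CPM in WT and 30.6, 8.19 and 16.7 CPM in KO, a log2 fold change of 2.13 ± 0.87 (SE). Por, the reductase that feeds electrons to all microsomal cytochromes P450, was at 668, 640 and 643 CPM in WT and 858, 771 and 887 CPM in KO, without overlap (log2 fold change 0.37 ± 0.18, SE). For 3 further genes KO replicate c was far from the rest. Cyp2a4, a steroid hydroxylase higher in females, was at 80.3 CPM in that liver and between 1.13 and 2.55 CPM in the other 5, and its log2 fold change went from 3.96 to 0.05 without it. Cux2, a female-specific repressor, was at 8.60 CPM there and at 0.515 to 2.64 CPM in the others, with a log2 fold change of 2.38 in all livers and 1.09 without it. Cyp2d9, a male-specific steroid hydroxylase, was at 784 CPM there and at 1575 to 2060 CPM in the others.

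Major urinary protein genes encode abundant male pheromone carriers made by hepatocytes under control of growth hormone. Of 14 tested, 2 had a log2 fold change above 0, against 52.2% of all genes. The median was -0.66, which went to -0.29 without KO replicate c. That liver was the lowest of all 36 libraries for at least 7 of these genes, among them Mup1, at 104 and 111 CPM in KO replicates a and b, 12.0 CPM in c and 48.3 to 59.8 CPM in WT. At an unadjusted p under 0.05, Mup9 and Mup15 were lower, beside 2.1% of all genes, and without KO replicate c Mup15 had an unadjusted p of 0.107 in edgeR. Mup9 was at 165, 98.6 and 64.2 CPM in WT and 38.1, 22.5 and 10.5 CPM in KO, with every KO liver below every WT liver and a log2 fold change of -2.21 ± 0.79 (SE). Its direction was the same at the other 5 times. Mup15 varied widely within each group, from 29.02 to 434 CPM in WT and from 0.158 to 18.9 CPM in KO. Mup4 was outside the list and was singled out after its values were seen. It was at 23.2, 53.5 and 10.9 CPM in WT and had 0 counts in all 3 KO livers. Against a floor of 3 counts over the KO group this is at least 1048-fold lower, a bound set by that floor and not a measured fold change. Mup4 did not pass the adjusted test of edgeR in the main fit. Over the whole series, ZT14 included, 9 of the 18 KO livers and 3 of the 18 WT livers had 0 counts of Mup4, while the highest KO liver reached 150 CPM. These genes are near-identical copies of each other, and the reads of one may have been counted for another. The list medians at the other times ran from -0.49 to 0.45, and so had no common direction.

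Other lists held few members that differed. Of 23 antioxidant and conjugation genes, 4 were higher (Gsr, Txnrd1, Nqo1 and Srxn1) and 1 lower at an unadjusted p under 0.05. The shares over all genes were 3.78% and 2.1%, and without KO replicate c no member reached that p. Gstp1, a male-predominant glutathione transferase, was the lower gene, at 2052, 2022 and 1974 CPM in WT and 1414, 1513 and 1377 CPM in KO. Both groups were tight and far apart, with a log2 fold change of -0.49 ± 0.22 (SE). Of 26 genes of the urea cycle and amino acid breakdown, 21 had a log2 fold change above 0, against 52.2% of all genes. Tdo2, the first enzyme of tryptophan breakdown, was at 1388, 1437 and 1304 CPM in WT and 1759, 1747 and 1539 CPM in KO, all KO livers above WT (log2 fold change 0.29 ± 0.09, SE). Prodh, which starts proline breakdown, had a log2 fold change of -0.39 ± 0.18 (SE) that went to -0.15 without KO replicate c. No gene in either direction had an unadjusted p under 0.05 among 35 interferon-stimulated genes, 22 acute phase genes, 32 genes of oxidative phosphorylation, 16 of glucose production and glycogen, 18 of insulin signalling and growth hormone and 22 immediate early and glucocorticoid-responsive genes.

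The clock was compared because ZT14 lies close to the time when many clock-controlled genes turn. None of 19 core clock and output genes reached an unadjusted p under 0.05, and only Per1 separated the groups. Per1, a period gene of the negative arm that also responds to hormones and feeding, was at 84.0, 60.3 and 78.6 CPM in WT and 42.4, 48.1 and 56.2 CPM in KO, all KO livers below WT, with a log2 fold change of -0.60 ± 0.56 (SE). At each of the other 5 times the fold change of Per1 was above 0. Per2 was at 92.1 to 111 CPM in WT and 85.8 to 93.2 CPM in KO, and Per3 at 28.6 to 32.4 CPM in WT and 28.4 to 34.5 CPM in KO. The cryptochromes, the other repressors, overlapped as well, with log2 fold changes of -0.18 ± 0.19 (SE) for Cry1 and -0.07 ± 0.14 (SE) for Cry2. In the activating arm, Arntl was at 5.89 to 6.95 CPM in WT and 3.63 to 8.04 CPM in KO, and Clock at 22.6 to 26.5 CPM in WT and 20.2 to 28.3 CPM in KO. Nr1d1 and Nr1d2, encoding the REV-ERB repressors, and Dbp, an output activator, had log2 fold changes of 0.08 ± 0.28, 0.28 ± 0.26 and 0.44 ± 0.40 (SE). Without KO replicate c these were -0.09, 0.12 and 0.11, and that of Cry1 was -0.05. Each of these groups overlapped. Npas2, a partner of the same arm, was at or under 0.109 CPM in all 6 livers, too low to compare.

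Among the genes ranked by unadjusted p, those with non-overlapping groups and a mean of at least 1 CPM gave 12 higher and 12 lower names. The higher genes were Pdp2, Nectin3, Ankrd28, Taok1, Tom1l1, Nebl, Ppp3cb, Mmd2, Nkiras1, Lmo7, Ptpn4 and Cdk17. Nebl, a nebulin-like actin-binding protein, was at 0.343 to 0.463 CPM in WT and 1.21, 0.595 and 5.44 CPM in KO, and its log2 fold change of 2.65 went to 1.19 without KO replicate c, with an unadjusted p of 0.0798 in edgeR. Pdp2, the phosphatase that activates pyruvate dehydrogenase, was at 27.6, 33.6 and 32.4 CPM in WT and 49.9995, 45.5 and 38.7 CPM in KO, without overlap. Its log2 fold change was 0.52 ± 0.12 (SE) and lay between 0.23 and 0.51 at the other 5 times. Nectin3, a cell adhesion protein, was at 33.8, 36.5 and 33.2 CPM in WT and 42.6, 43.6 and 48.9 CPM in KO, a log2 fold change of 0.39 ± 0.09 (SE), also positive at all other times. Lmo7, an adhesion and actin scaffold, was at 18.4, 19.0 and 18.4 CPM in WT and 21.1, 29.5 and 25.8 CPM in KO, and its fold changes at the other times ran from -0.07 to 0.19. The lower genes were Gm3839, Yipf2, Clec4g, Rpl15, Cnn2, Sned1, Stab2, Rcn3, Nckipsd, Ssbp4, Eif5b and Gm13889. Yipf2, a Golgi membrane protein, was at 13.7, 16.2 and 14.4 CPM in WT and 10.5, 10.1 and 10.6 CPM in KO, a log2 fold change of -0.51 ± 0.13 (SE). Cnn2, an actin-binding calponin, was at 6.38, 6.57 and 7.20 CPM in WT and 3.52, 4.68 and 4.54 CPM in KO, a log2 fold change of -0.66 ± 0.18 (SE). Clec4g and Stab2 are markers of liver sinusoidal endothelial cells.

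Markers of several cell types other than hepatocytes had lower values in KO at ZT14, none past the adjusted test. In bulk liver, fewer cells of a type and less RNA per cell cannot be told apart. Of 10 sinusoidal endothelial markers, 9 had a log2 fold change below 0 with a median of -0.32, and 4 were lower at an unadjusted p under 0.05, beside 2.1% of all genes. Clec4g, an endothelial lectin, was at 33.9, 43.1 and 48.2 CPM in WT and 29.6, 30.8 and 29.6 CPM in KO, and Stab2, a scavenger receptor for hyaluronan, at 30.7, 36.3 and 39.5 CPM in WT and 27.3, 25.4 and 25.5 CPM in KO. The KO livers were close together and below every WT liver for both, with log2 fold changes of -0.48 ± 0.12 and -0.45 ± 0.12 (SE). Summed over the list, the markers gave 211 to 308 CPM in WT and 196 to 220 CPM in KO. All 11 Kupffer cell and macrophage markers had a log2 fold change below 0, 6 without overlap beside 5.16% of all genes, among them the 3 chains of complement C1q and the Kupffer cell receptor Clec4f, but 0 reached an unadjusted p under 0.05. Their sum was 298 to 409 CPM in WT and 259 to 286 CPM in KO. All 11 stellate cell markers lay below 0 too, with sums of 431 to 510 CPM in WT and 312 to 423 CPM in KO, and 2 of them, Des and Ecm1, at an unadjusted p under 0.05. Without KO replicate c, 3 endothelial markers and 1 stellate cell marker were lower at an unadjusted p under 0.05, beside 1.89% of all genes. Of the 11 Kupffer cell markers, 8 then lay entirely below WT, beside 10.4% of all genes. Hepatocyte markers, at 89849 to 93906 CPM in WT and 91894 to 98588 CPM in KO, were the most abundant of the marker lists in all 6 livers, and their sums overlapped. At the other times the endothelial median ran from -0.01 to 0.25 and the Kupffer cell median from -0.61 to 0.18.

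**Figure D4:**
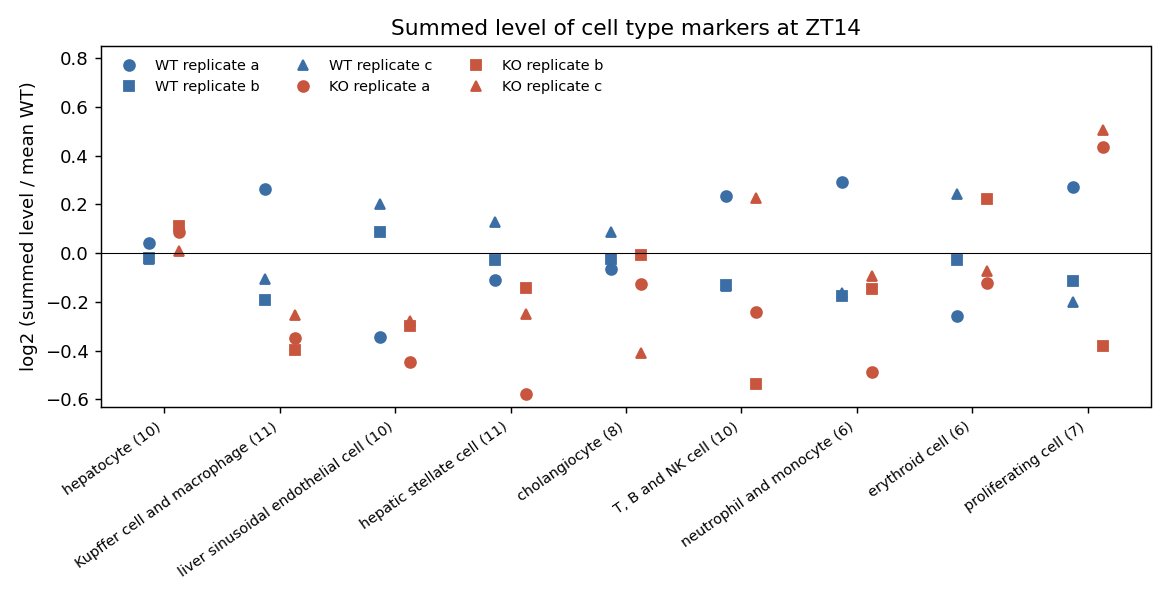
Summed level of the marker genes of each cell type in the 6 livers of ZT14, as log2 of the sum over the mean of the 3 WT livers (y axis), with the number of tested markers in brackets; blue is WT, red is KO, and circles, squares and triangles are replicates a, b and c. The sums of Kupffer cell, sinusoidal endothelial and stellate cell markers overlap between the groups for endothelial cells alone, and KO lies below WT for the other 2.

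Lymphocyte markers summed to 7.49 to 9.70 CPM in WT and 5.67 to 9.64 CPM in KO, and neutrophil and monocyte markers to 35.5 to 49.1 CPM in WT and 28.6 to 37.6 CPM in KO. Ccr2, a chemokine receptor of monocytes, went against its list at 0.715, 0.736 and 0.506 CPM in WT and 1.07, 0.992 and 2.01 CPM in KO. The sums of cholangiocyte, erythroid and proliferation markers overlapped between the groups. Of 8 cholangiocyte markers, 2 lay entirely below WT, beside 5.16% of all genes, and 0 reached an unadjusted p under 0.05. Of the pancreatic acinar markers 6 of 9 had 0 counts in all 6 livers, and adipocyte markers summed to at most 0.284 CPM. The part of the endothelial, Kupffer cell and stellate cell levels in the differences of other genes was not tested.

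The genes by which KO replicate c stood apart were singled out after their values were seen. Asns, asparagine synthetase, was at 72.7 CPM in this liver and at 4.10 to 9.79 CPM in the other 5, the highest value of all 36 libraries. Fgf21, the fasting and stress hormone of liver, was at 13.6 CPM against 0.565 to 3.49 CPM. Psat1 of serine synthesis was at 8.26 CPM against 0.427 to 3.18 CPM, and Mthfd1l and Mthfd2 of mitochondrial one-carbon metabolism at 29.5 and 7.58 CPM against at most 9.56 and 2.44 CPM. All of these are known targets of the transcription factor ATF4. Trib3, Chac1 and Ddit3, other genes of that response, were at 3.50, 2.28 and 12.5 CPM in this liver and at 2.56 to 3.52, 0.387 to 2.12 and 11.8 to 22.2 CPM in the others. The motif TGATGNAA, bound by ATF4 with a C/EBP partner, was found on either strand in the 250 bases before 3 of the 17 genes with a RefSeq promoter entry among those 2-fold above (Asns, Fgf21 and Nupr1) and in 3.45% of all promoters. A gene counted if any of its promoters matched, so the share of promoters is not in the same unit. Psat1 had 0 matches. The genes were picked from the values of this liver, and a part of ATF4 in them was not tested. The Asns promoter (chr6:7693210-7693459, minus strand, GRCm38.p6) is shown because Asns had the widest gap to the other 5 livers of the 3 genes with a match, with the motif in capitals.
Asns: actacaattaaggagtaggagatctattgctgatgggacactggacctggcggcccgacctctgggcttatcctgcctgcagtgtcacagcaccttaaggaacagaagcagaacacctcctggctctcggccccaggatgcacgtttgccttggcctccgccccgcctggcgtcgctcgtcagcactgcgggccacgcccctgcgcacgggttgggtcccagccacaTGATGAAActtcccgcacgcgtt

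Several genes of lipid metabolism were among those 2-fold below, and were singled out in the same way. Elovl3, a fatty acid elongase, was at 4.38 CPM in KO replicate c and 26.1 to 104 CPM in the other 5, Acacb, which makes the malonyl-CoA that restrains fatty acid oxidation, at 19.99 CPM against 69.5 to 132 CPM, and Fasn, fatty acid synthase, at 739 CPM against 1596 to 2420 CPM. Elovl3 and Acacb were lower in this liver than in any of the other 35 libraries, and Fasn was not. The insulin-sensitising serpin Serpina12 and the lipase inhibitor Angptl4 were also at their lowest of the series, at 1.38 and 14.2 CPM. Mup19 went from 1983 to 2181 CPM in WT to 1102, 92.8 and 5.33 CPM in KO replicates a, b and c, and so differed among the KO livers as much as between the groups. Rps27rt, a copy of the ribosomal gene Rps27, was at 148 CPM here and at most 59.8 CPM in the other 5, while Rps27 was at 95.0 CPM and at least 168 CPM in the others. The transcripts are 100% identical over 341 bases, and the reads of the pair cannot be told apart.

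**Figure D5:**
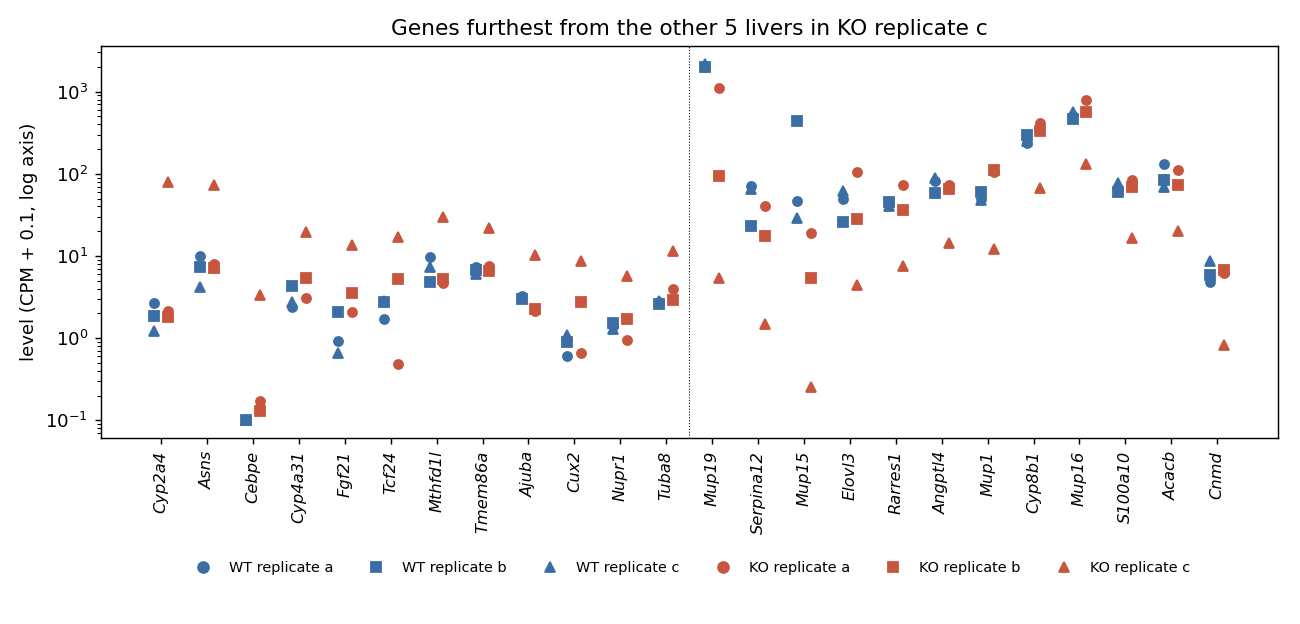
Level in CPM plus 0.1 (log axis) in the 6 livers of ZT14 of the 12 genes furthest above and the 12 furthest below the other 5 livers in KO replicate c (x axis, split by the dotted line); blue is WT, red is KO, and circles, squares and triangles are replicates a, b and c. The red triangle stands alone for each gene, from Cyp2a4 at 80.3 CPM to Cnmd at 0.722 CPM.

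Whether a difference was particular to ZT14 was asked by setting the KO effect at ZT14 against its mean at the other 5 times in the same model. In edgeR's quasi-likelihood test 0 of 14193 genes passed the adjusted threshold and 619 (4.36%) had an unadjusted p under 0.05, while DESeq2 called 2, Mup4 and Cebpe. At ZT14 Mup4 had 0 counts in the KO livers and Cebpe in the WT livers, so neither fold change has a measured size. Cebpe was at 0.0711, 0.0284 and 3.25 CPM in KO replicates a, b and c of ZT14. Its median over the 18 KO livers of the series was 3.86 CPM. Of the genes named for a low unadjusted p at ZT14, Clec4g had an unadjusted p of 0.00054 and Stab2 of 0.00093 in edgeR for this contrast. Their log2 fold changes at the other times ran from -0.11 to 0.29 and from -0.03 to 0.09. Ankrd28 (0.00057), Tdo2 (0.00253) and Cyp2a4 (0.00034) were also low in unadjusted p in edgeR, Cyp2a4 by way of KO replicate c. All of these genes were named from the same ZT14 values that enter this contrast. Their low p-values here follow in part from that choice and give no separate support. Dio1, Mup9, Gm3839 and Rpl15 did not stand apart at ZT14, with unadjusted p-values in edgeR of 0.763, 0.531, 0.577 and 0.324. No adjusted p in this contrast was below 0.05 in edgeR, so no gene is described as specific to this time.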

How the data were processed

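Livers were measured by RNA-seq with poly-A selected, non-directional paired-end libraries, 3 mice in each of 12 groups of genotype and time. The authors aligned reads with HISAT2 to GRCm38 (mm10) and counted them per gene with featureCounts; versions are not given in the sources used here. The deposited values are raw counts for 54532 genes, of which 54409 IDs are also in GENCODE vM21 and 98.26% of those have the same position. The table's gene length column was not used as a measurement.

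From these counts, edgeR 4.0.16 (R 4.3.3) was used with TMM normalization and its quasi-likelihood test, with 1 mean per group over the 36 libraries (24 residual degrees of freedom). Genes were protein coding with at least 100 counts in all, a filter on the sum over groups, and p-values were adjusted over all 14193 of them by the Benjamini-Hochberg method at 0.05. The contrast was KO minus WT at ZT14, and that difference minus its mean at the other 5 times. SE is the size of the log2 fold change over the root of F. CPM is the count scaled to the normalized library size. Alternatives used RLE factors, other filters, all biotypes, DESeq2 1.42.0, a replicate block, the 6 libraries alone and each library left out. The scripts were tested on simulated data. Sequences come from RefSeq promoters (GRCm38.p6), and transcript identities from BLAST+ 2.17.0 on GENCODE vM21 transcripts.

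The named genes were the receptors, Dio1, Thrsp and the clock genes; 12 genes each way by test and size, with at least 1 CPM and no overlap; and up to 6 per list, which the text extends to members that separate the groups and to genes named as singled out. Members and lists were chosen with earlier results of these data known. The libraries of a group differed beyond sampling noise, and each is 1 mouse, so n is 3 per group. The letters a, b and c are shared by the groups, and the main fit did not use them because the methods of the study do not. Deviations of same-letter livers at ZT14 had correlations of 0.036, 0.098 and -0.043. With 3 mice a group, these values cannot exclude a shared effect of the letter on single genes. With 3 mice a group, small differences could not be detected after adjustment over all genes.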

Additional observations from a re-analysis of the deposited data

Results flagged for a closer look

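Genes outside the protein-coding table gave 2 differences at ZT14 that passed the adjusted test when all 17994 genes of any biotype with at least 100 counts were fitted, and both rose in KO. Gm10020, a processed pseudogene on chromosome 15 (52477617 to 52478228), was at 12.9, 13.1 and 12.97 CPM in WT and at 26.2, 26.8 and 24.5 CPM in KO, with a log2 fold change of 0.99 ± 0.08 (SE) and an adjusted p of 3.39e-08 in edgeR. The 2 groups were each tight and apart, and over the series the 18 WT livers spanned 10.3 to 13.3 CPM and the 18 KO livers 21.9 to 27.3 CPM. Its transcript is 99.7% identical to that of Rpl15 over its whole length of 612 bases, and Rpl15, 0.23 Mb from Thrb, lay lower in KO, at 108 to 135 CPM over the series against 128 to 151 CPM in WT. Reads of the pair may have been split between them, and this was not tested.

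The other gene, 9030619P08Rik, a transcribed pseudogene on chromosome 15 (75427606 to 75431829), was at 16.2, 7.77 and 6.57 CPM in WT and at 97.8, 61.4 and 16.3 CPM in KO. KO replicate c was barely above WT replicate a, and the log2 fold change was 2.50 ± 0.43 (SE) with an adjusted p of 0.0147 in edgeR. Over the series WT livers spanned 3.71 to 16.2 CPM and KO livers 16.3 to 105 CPM. Its transcript is 77.2% identical to that of Ly6g over 945 aligned positions and 77.3% to that of Ly6a over 926.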

How the results depend on the processing

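The count of genes past the threshold at ZT14 was 1 in edgeR with RLE factors, with either other filter and with the 6 libraries alone, each time Gm3839. It was 3 with all biotypes (2 higher), 4 in DESeq2 (2 higher and 2 lower: Cebpe, C1rb, Mup4 and Gm3839) and 0 to 1 with a library left out, with 0 to 1 higher and 0 to 1 lower. It was 0 without WT replicate b, KO replicate a or KO replicate c, and the 1 gene without KO replicate b was C1rb, at 7.99 CPM in KO replicate c and at most 0.853 CPM elsewhere at ZT14. The sources do not say what a letter marks, although the animal numbers of same-letter mice lie close together in the labels, and the correlations of same-letter livers were all under 0.1. With the replicate block the count was 1, Dio1 (log2 fold change -1.11, adjusted p 0.00774 in edgeR, against 0.793 without it and 0.148 with it in the 6 libraries alone), while Gm3839 had -3.26 and 0.115. With the replicate block in the 6 libraries alone it was 4 (1 higher, 3 lower): Cyp2b10, Mup9, Mup4 and Gm3839. Not every KO liver correlated best with the WT liver of its letter. The contrast with the other times gave 0 in each edgeR setting and 2 in DESeq2 (1 higher, 1 lower); its 6-library fits could not be made. Signs turned when 1 library was left out: Arntl ranged from -0.55 to 0.0243, Thrsp from -0.76 to 0.0699, Cry2 from -0.13 to 0.0179, Clock from -0.19 to 0.0553, Nr1d1 from -0.15 to 0.41, Thrb from -0.0504 to 0.12, Per3 from -0.0214 to 0.12 and Npas2 from -0.58 to 1.45. The cause of these shifts was not tested. Counting of the lists without KO replicate c was added after the data were seen.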
